A study of Mus musculus with 19 samples.

Results

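Mitochondrial ribosomal proteins were taken as every gene on the array whose symbol consists of Mrpl or Mrps followed by a number. The rule used no measured value, and it gave 73 of the 30214 genes on the array, 47 named for the large subunit (Mrpl) and 26 for the small subunit (Mrps). The subunit of a gene was read from its symbol alone and was not checked against the structure of the ribosome. These genes were read by 101 probes. All 73 genes, through 100 of these probes, passed the filter on dim signals, as did 24741 genes of the whole array.

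The mitochondrial ribosome sits in the mitochondrial matrix and translates the messages of mitochondrial DNA, all of which encode subunits of the respiratory chain and the ATP synthase. Its protein shell is made in the cytosol from nuclear genes and imported, while its ribosomal RNAs come from mitochondrial DNA. The small subunit binds the message and decodes it, and the large subunit forms the peptide bond and releases the hydrophobic chain through an exit tunnel at the inner membrane. In skeletal muscle, its output is tied to the oxidative capacity of the fiber.

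Quadriceps muscles of male C57Bl6J mice were collected at 180 days of age. AR113Q mice are a knock-in model of spinal and bulbar muscular atrophy (SBMA), in which every cell that expresses the androgen receptor makes it with an expanded glutamine tract, and CTR mice are wild-type. From 40 days of age, mice of each genotype were fed purified normal chow diet (NCD) or high-fat diet (HFD). This gave 5 samples each of CTR-NCD, AR113Q-NCD and AR113Q-HFD muscle and 4 of CTR-HFD muscle, each on 1 one-colour array. The labels do not say that every sample came from a separate mouse, so the p-values measure only the spread between these samples. A gene probe does not read the length of the glutamine tract, and the genotype labels could not be checked in these data.

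Between 67.1% and 80.1% of the probes were well above background on each array, and the ranges of the 4 groups overlapped. The 6 skeletal muscle markers (Ckm, Acta1, Mylpf, Tnnt3, Myh4 and Pvalb) were above background on all 19 arrays. No probe of a mitochondrial ribosomal protein gene was saturated. Levels are log2 intensities relative to the 75th percentile of the array (level 0), and differences between groups are given on this scale unless a quantile-normalized value is named. Differences were tested with limma over 32026 probes, and a gene counted as higher or lower at an adjusted p under 0.05 through its brightest probe. In whole muscle, fewer fibers of a type and less RNA per fiber cannot be told apart.

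The promoters of these genes share short sequence features that the choice of genes did not use. Of the 73 genes, 64 had a promoter entry in RefSeq (GRCm38.p6), taken as 250 bases before to 50 bases after the start. The letters CCGGAAG, the core bound by ETS factors such as GABP (NRF2), stood on either strand of 21 of 64 promoters (32.8%), against 2683 of 27025 promoters of all genes (9.93%). GCGCANGCG, the core of the nuclear respiratory factor 1 (NRF1) site, stood in 14 (21.9%), against 7.03% of all promoters. AAGATGGCG, the core of the YY1 site, stood in 7 (10.9%), against 1.64%. In all, 37 of 64 (57.8%) held at least 1 of these motifs, against 16.5% of all promoters, and no 2 of them overlapped in a promoter of these genes.

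The 250 bases before the start are shown for 5 genes that differ in a comparison below and hold a motif, and the capitals mark the motif. Other genes that differ lack these motifs: 27 of the 64 promoters held none, among them those of Mrpl23, Mrpl49 and Mrpl41. Mrps28 and Mrps35 had no promoter entry. Mrpl51, at chr6:125191950-125192199 (+ strand), and Mrpl3, at chr9:105053018-105053267 (+ strand), held the ETS letters as written, beginning at positions -90 and -19 from the start. Mrpl44, at chr1:79775768-79776017 (+ strand), held the NRF1 letters as written at -35, and Mrpl10, at chr11:97041332-97041581 (+ strand), held them on the opposite strand at -135. Mrpl36, at chr13:73330759-73331008 (+ strand), held the YY1 letters on the opposite strand at -31.
Mrpl51: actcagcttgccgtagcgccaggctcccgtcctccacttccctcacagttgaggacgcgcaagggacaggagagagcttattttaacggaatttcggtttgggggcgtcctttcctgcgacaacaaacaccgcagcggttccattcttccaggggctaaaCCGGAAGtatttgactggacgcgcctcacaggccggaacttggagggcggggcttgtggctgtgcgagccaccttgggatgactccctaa
Mrpl3: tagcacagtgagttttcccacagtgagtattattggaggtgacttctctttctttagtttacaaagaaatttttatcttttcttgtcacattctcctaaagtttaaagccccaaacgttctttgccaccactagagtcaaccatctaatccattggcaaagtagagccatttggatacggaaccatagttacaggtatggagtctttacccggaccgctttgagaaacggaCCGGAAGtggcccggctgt
Mrpl44: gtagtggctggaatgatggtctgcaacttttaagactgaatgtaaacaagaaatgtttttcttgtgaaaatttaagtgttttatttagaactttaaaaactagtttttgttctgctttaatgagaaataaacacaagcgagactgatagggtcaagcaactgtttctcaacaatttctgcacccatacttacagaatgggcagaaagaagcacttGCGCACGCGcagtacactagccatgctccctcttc
Mrpl10: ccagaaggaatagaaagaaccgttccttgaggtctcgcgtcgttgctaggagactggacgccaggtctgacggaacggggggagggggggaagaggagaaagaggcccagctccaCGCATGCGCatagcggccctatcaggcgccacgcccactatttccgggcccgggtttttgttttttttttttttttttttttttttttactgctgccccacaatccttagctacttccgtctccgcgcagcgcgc
Mrpl36: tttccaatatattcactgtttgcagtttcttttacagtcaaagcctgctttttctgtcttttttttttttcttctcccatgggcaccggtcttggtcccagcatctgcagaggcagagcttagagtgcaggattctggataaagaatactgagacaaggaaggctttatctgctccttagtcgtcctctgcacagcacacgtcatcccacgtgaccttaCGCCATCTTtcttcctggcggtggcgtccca

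As a whole, the ribosome genes stood close together across the 4 groups. The mean level of the 47 large subunit genes was 3.43 ± 0.07 (SD, n = 5) in CTR-NCD, 3.40 ± 0.04 (n = 5) in AR113Q-NCD, 3.49 ± 0.05 (n = 4) in CTR-HFD and 3.34 ± 0.10 (n = 5) in AR113Q-HFD muscle. The small subunit followed the same order, with 3.07 ± 0.07, 3.06 ± 0.05, 3.12 ± 0.04 and 3.001 ± 0.08. On NCD, the genotypes differed by less than the spread between arrays of a group, which was 0.0706 for the large and 0.0611 for the small subunit (pooled SD). On HFD, the AR113Q arrays ranged from 3.19 to 3.45 and the CTR arrays from 3.45 to 3.56 for the large subunit, with the ranges meeting at 3.45. After quantile normalization, the order differed: the large subunit mean was 13.37 ± 0.0076 (SD) in AR113Q-NCD, 13.35 ± 0.07 in CTR-HFD, 13.33 ± 0.05 in CTR-NCD and 13.31 ± 0.06 in AR113Q-HFD muscle, on a scale where level 0 is not the 75th percentile. AR113Q-HFD replicate 3 had the lowest mean of both subunits among its group (3.19 and 2.88).

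**Figure D1:**
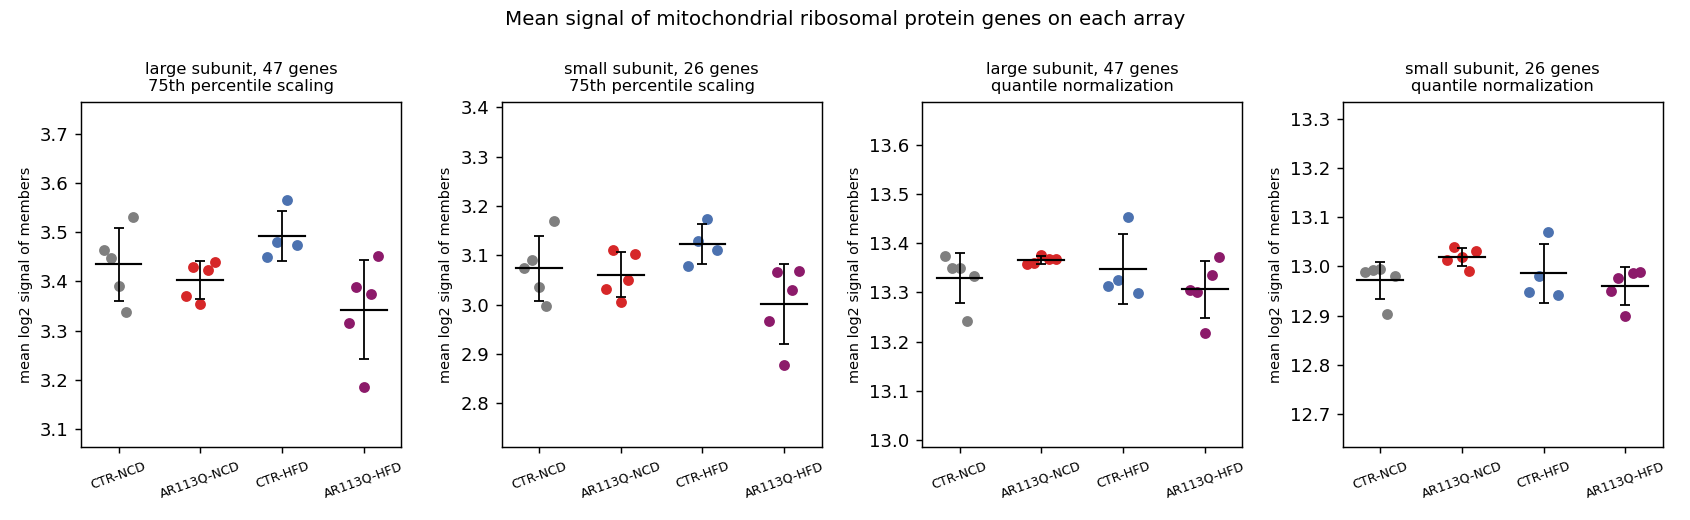
Mean level of the 47 large subunit and the 26 small subunit genes on each of the 19 arrays (log2 intensity minus the 75th percentile of the array, left, and quantile-normalized, right). Points are arrays and bars are the group mean ± SD; on the 75th percentile scale, AR113Q-HFD had the lowest mean (3.34 and 3.001) and CTR-HFD the highest (3.49 and 3.12).

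On NCD, 10 of the 73 genes differed between AR113Q and CTR muscle. Mrpl36, Mrpl42, Mrpl23, Mrpl51, Mrps28 and Mrps16 were lower in AR113Q muscle, by 0.22 to 0.51 on the log2 scale. Mrps35, Mrpl3, Mrpl49 and Mrpl41 were higher, by 0.28 to 0.36. Of all tested genes, 9.11% were lower and 7.96% were higher in this comparison, so the shares among the ribosome genes (8.22% and 5.48%) were near the background. The large subunit had 3 higher and 4 lower genes and the small subunit 1 and 2. The median difference was -0.03 over the large and -0.01 over the small subunit, against -0.06 over all tested genes. With quantile normalization, the count was 7 higher and 3 lower (9.59% and 4.11%, against 10.1% and 8.24% of all genes), and the medians turned positive (0.06 and 0.05, against 0.01 over all genes). With each array centred on its median instead, 1 gene was higher (Mrps35) and limma called 0 as lower (4 and 2 had an unadjusted p under 0.05), while 1011 and 806 of the 24741 tested genes were called.

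On HFD, 20 of the 73 genes differed between genotypes, and 19 of them were lower in AR113Q muscle. Of all tested genes, 10.6% were lower and 7.37% were higher, whereas 26.03% of the ribosome genes were lower and 1.37% were higher. The 13 lower large subunit genes were Mrpl42, Mrpl51, Mrpl44, Mrpl50, Mrpl18, Mrpl1, Mrpl55, Mrpl23, Mrpl38, Mrpl30, Mrpl22, Mrpl40 and Mrpl11, and the 6 lower small subunit genes were Mrps28, Mrps23, Mrps16, Mrps36, Mrps7 and Mrps26. Their differences lay between -0.45 and -0.21. Mrpl10 alone was higher. The median difference was -0.16 over the large and -0.13 over the small subunit, against -0.09 over all tested genes, and 59 of 73 genes were below 0. With quantile normalization, 9 were lower and 5 higher (12.3% and 6.85%, against 7.97% and 10.3% of all genes), and the medians moved to -0.05 and -0.04. With each array centred on its median, limma called 0 ribosome genes in either direction, while 1100 of the 24741 tested genes were higher and 757 lower. Ribosome genes with an unadjusted p under 0.05 then numbered 1 (positive) and 5 (negative). Relative to the 75th percentile, 37 had an unadjusted p under 0.05 (29.1% of all genes). The count of 19 lower genes became 6 with the authors' values, 7 with only the compared groups in the fit, and 11 without AR113Q-HFD replicate 3. With the authors' values, 1780 of all 23735 genes were lower.

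Mrpl42, a large subunit protein with no bacterial counterpart, was lower in AR113Q muscle on either diet (probe at chr10:94963065-94963124, minus strand, mm9). Its levels were 3.92, 3.72, 3.75, 3.87 and 3.83 on the CTR-NCD arrays and 3.32, 3.48, 3.47, 3.65 and 3.45 on the AR113Q-NCD arrays. On HFD, they were 3.71, 3.98, 3.80 and 3.86 in CTR and 3.20, 3.44, 3.24, 3.59 and 3.46 in AR113Q muscle. Every AR113Q array was below every CTR array of the same diet. The difference was -0.35 ± 0.083 (SE, adjusted p = 0.00768) on NCD and -0.45 ± 0.088 (adjusted p = 0.00161) on HFD, and with quantile normalization -0.27 (adjusted p = 0.0201) and -0.34 (adjusted p = 0.00686). Within slides, AR113Q was lower on 5 of 5 slides on NCD (-0.59 to -0.22) and on 4 of 4 on HFD (-0.56 to -0.40).

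Mrpl51 is another large subunit protein that bacterial ribosomes lack, and its promoter with the ETS letters is shown above (probe at chr6:125143362-125143421, plus strand, mm9). Its levels were 6.49, 6.41, 6.29, 6.38 and 6.55 in CTR-NCD and 6.09, 6.18, 6.09, 6.26 and 6.15 in AR113Q-NCD muscle. They were 6.41, 6.51, 6.46 and 6.52 in CTR-HFD and 6.03, 6.16, 5.82, 6.11 and 6.23 in AR113Q-HFD muscle. The genotypes did not overlap on either diet, with differences of -0.27 (adjusted p = 0.0162) on NCD and -0.40 (adjusted p = 0.00155) on HFD. With quantile normalization, these were -0.15 (adjusted p = 0.0483) and -0.21 (adjusted p = 0.0112). With the authors' values, they were -0.15 on either diet and neither was called (adjusted p = 0.0641 and 0.0958).

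In the small subunit, Mrps28 and Mrps16 were lower on both diets. Mrps28 (probe at chr3:8802222-8802281, minus strand, mm9) had levels of 5.25, 5.38, 5.25, 5.30 and 5.53 in CTR-NCD and 5.06, 5.08, 4.98, 5.12 and 5.17 in AR113Q-NCD muscle. On HFD, its levels were 5.44, 5.47, 5.28 and 5.49 in CTR and 4.97, 5.09, 4.88, 5.16 and 5.03 in AR113Q muscle. Again the genotypes did not overlap, and the differences were -0.26 (adjusted p = 0.0173) and -0.40 (adjusted p = 0.00133). With quantile normalization, the NCD difference was -0.15 and was no longer called (adjusted p = 0.0758), while the HFD difference was -0.25 (adjusted p = 0.00699). Without AR113Q-NCD replicate 3, the NCD call was also lost (adjusted p = 0.0507).

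Mrps16, the counterpart of a bacterial small subunit protein needed for assembly (probe at chr14:21210454-21210513, minus strand, mm9), had levels of 3.91, 3.92, 3.83, 3.95 and 4.10 in CTR-NCD and 3.62, 3.77, 3.69, 3.73 and 3.77 in AR113Q-NCD muscle. They were 4.03, 4.07, 3.999 and 3.96 in CTR-HFD and 3.56, 3.75, 3.53, 3.68 and 3.90 in AR113Q-HFD muscle. No array of one genotype reached the range of the other within a diet. The differences were -0.22 (adjusted p = 0.0410) on NCD and -0.33 (adjusted p = 0.00551) on HFD. With quantile normalization, they were -0.14 (adjusted p = 0.0785) and -0.21 (adjusted p = 0.0178). The NCD call was lost without any array of AR113Q-NCD, without CTR-NCD replicate 1, 2, 4 or 5, and without AR113Q-HFD replicate 4 or CTR-HFD replicate 1 (adjusted p = 0.0504 to 0.109).

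The 5 genes lower on both diets were Mrpl42, Mrpl51, Mrps28, Mrps16 and Mrpl23. Mrpl23, which lines the rim of the exit tunnel (probe at chr7:149726589-149726647, plus strand, mm9), had levels of 5.63, 5.48, 5.50, 5.76 and 5.83 in CTR-NCD and 5.42, 5.17, 5.20, 5.49 and 5.49 in AR113Q-NCD muscle. On HFD, its levels were 5.71, 5.73, 5.46 and 5.85 in CTR and 5.34, 5.44, 5.28, 5.46 and 5.43 in AR113Q muscle. The highest AR113Q and the lowest CTR arrays met at 5.49 and 5.48 on NCD and at 5.46 on HFD. The differences were -0.29 (adjusted p = 0.0391) and -0.30 (adjusted p = 0.0434), and with quantile normalization -0.16 (adjusted p = 0.199) and -0.13 (adjusted p = 0.350), so the gene was called only relative to the 75th percentile among these scales. On NCD, the call was lost without AR113Q-NCD replicate 2 or 3 or CTR-NCD replicate 1, 4 or 5 (adjusted p = 0.0662 to 0.106). On HFD, it was lost without any array of AR113Q-HFD, without CTR-HFD replicate 1, 2 or 4, and without replicate 1 of either NCD group (adjusted p = 0.0516 to 0.138).

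Mrpl36, a small zinc-binding protein of the large subunit (probe at chr13:73469515-73469574, plus strand, mm9), had the lowest difference on NCD. Its levels were 3.54, 3.63, 3.52, 3.63 and 3.84 in CTR-NCD and 3.35, 3.36, 3.15, 2.44 and 3.31 in AR113Q-NCD muscle. AR113Q-NCD replicate 4, at 2.44, was far below the other AR113Q arrays, but all of them were below the CTR range. The difference was -0.51 ± 0.14 (SE, adjusted p = 0.0183), and -0.34 (adjusted p = 0.0116) without replicate 4 of AR113Q-NCD. Without CTR-NCD replicate 5, it was -0.46 and was not called (adjusted p = 0.0520). On HFD, the levels were 3.70, 3.63, 3.54 and 3.86 in CTR and 3.37, 3.31, 3.15, 3.35 and 3.41 in AR113Q muscle, which did not overlap, with a difference of -0.37 that did not pass the test (adjusted p = 0.109).

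Mrpl44 was called on HFD but not on NCD. It has a ribonuclease III-like fold and is needed for assembly of the large subunit (probe at chr1:79777892-79777951, plus strand, mm9). Its levels were 1.97, 1.99, 2.02 and 1.96 in CTR-HFD and 1.62, 1.64, 1.47, 1.64 and 1.78 in AR113Q-HFD muscle. On NCD, they were 1.74, 1.85, 1.68, 1.67 and 1.76 in CTR and 1.53, 1.73, 1.60, 1.79 and 1.64 in AR113Q muscle. CTR-HFD thus stood above the other groups, which overlapped one another. The genotype difference was -0.36 (adjusted p = 0.00142) on HFD and -0.08 (adjusted p = 0.456) on NCD, and the interaction, which tests whether these differ, was -0.28 (adjusted p = 0.937).

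Mrps23, a small subunit protein specific to mitochondria (probe at chr11:88024940-88024999, plus strand, mm9), had levels of 5.26, 5.17, 5.36 and 5.42 in CTR-HFD and 5.02, 5.04, 4.67, 4.95 and 4.95 in AR113Q-HFD muscle. Its levels were 5.21, 5.27, 5.20, 5.21 and 5.27 in CTR-NCD and 5.09, 5.04, 5.0003, 5.03 and 4.99 in AR113Q-NCD muscle. The genotypes were separate on each diet, although the NCD difference of -0.20 missed the threshold (adjusted p = 0.0527). The HFD difference was -0.38 (adjusted p = 0.00148), and -0.24 with quantile normalization (adjusted p = 0.0177). With the authors' values, it was -0.18 and was not called (adjusted p = 0.0585). A second probe of Mrps23 differed by -0.10 (adjusted p = 0.507) on NCD and -0.18 (adjusted p = 0.203) on HFD.

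Of the other genes lower on HFD, Mrpl1, a protein of the mobile stalk beside the tRNA exit site, fell by 0.32 (log2, adjusted p = 0.00936), and Mrpl40 fell by 0.25 (adjusted p = 0.0146). Each was also lower with quantile normalization (-0.30 and -0.17), but with the authors' values Mrpl40 was not called (-0.15, adjusted p = 0.112). Mrpl50 fell by 0.35 (adjusted p = 0.00483), but a second, dimmer probe of this gene differed by only -0.02. Mrps36 fell by 0.28 (adjusted p = 0.0444), but its second probe was not called (-0.23, adjusted p = 0.0802), nor was the gene with quantile normalization (-0.14, adjusted p = 0.342) or the authors' values (-0.13, adjusted p = 0.377). It is named as a ribosomal protein but is known as a component of the 2-oxoglutarate dehydrogenase complex of the citric acid cycle. By its symbol, it was counted here with the small subunit. Mrps7 (-0.24, adjusted p = 0.0274) and Mrpl11 (-0.24, adjusted p = 0.0251) were not called with quantile normalization (adjusted p = 0.255 and 0.189). Without AR113Q-HFD replicate 3 or CTR-HFD replicate 1, neither Mrpl11 nor Mrpl55 was called, nor was Mrpl11 without AR113Q-HFD replicate 1 or CTR-HFD replicate 2 or 3, Mrpl55 without CTR-HFD replicate 3, or Mrps7 without AR113Q-HFD replicate 3 or CTR-HFD replicate 2 or 4 (adjusted p from 0.0501 to 0.0729).

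**Figure D2:**
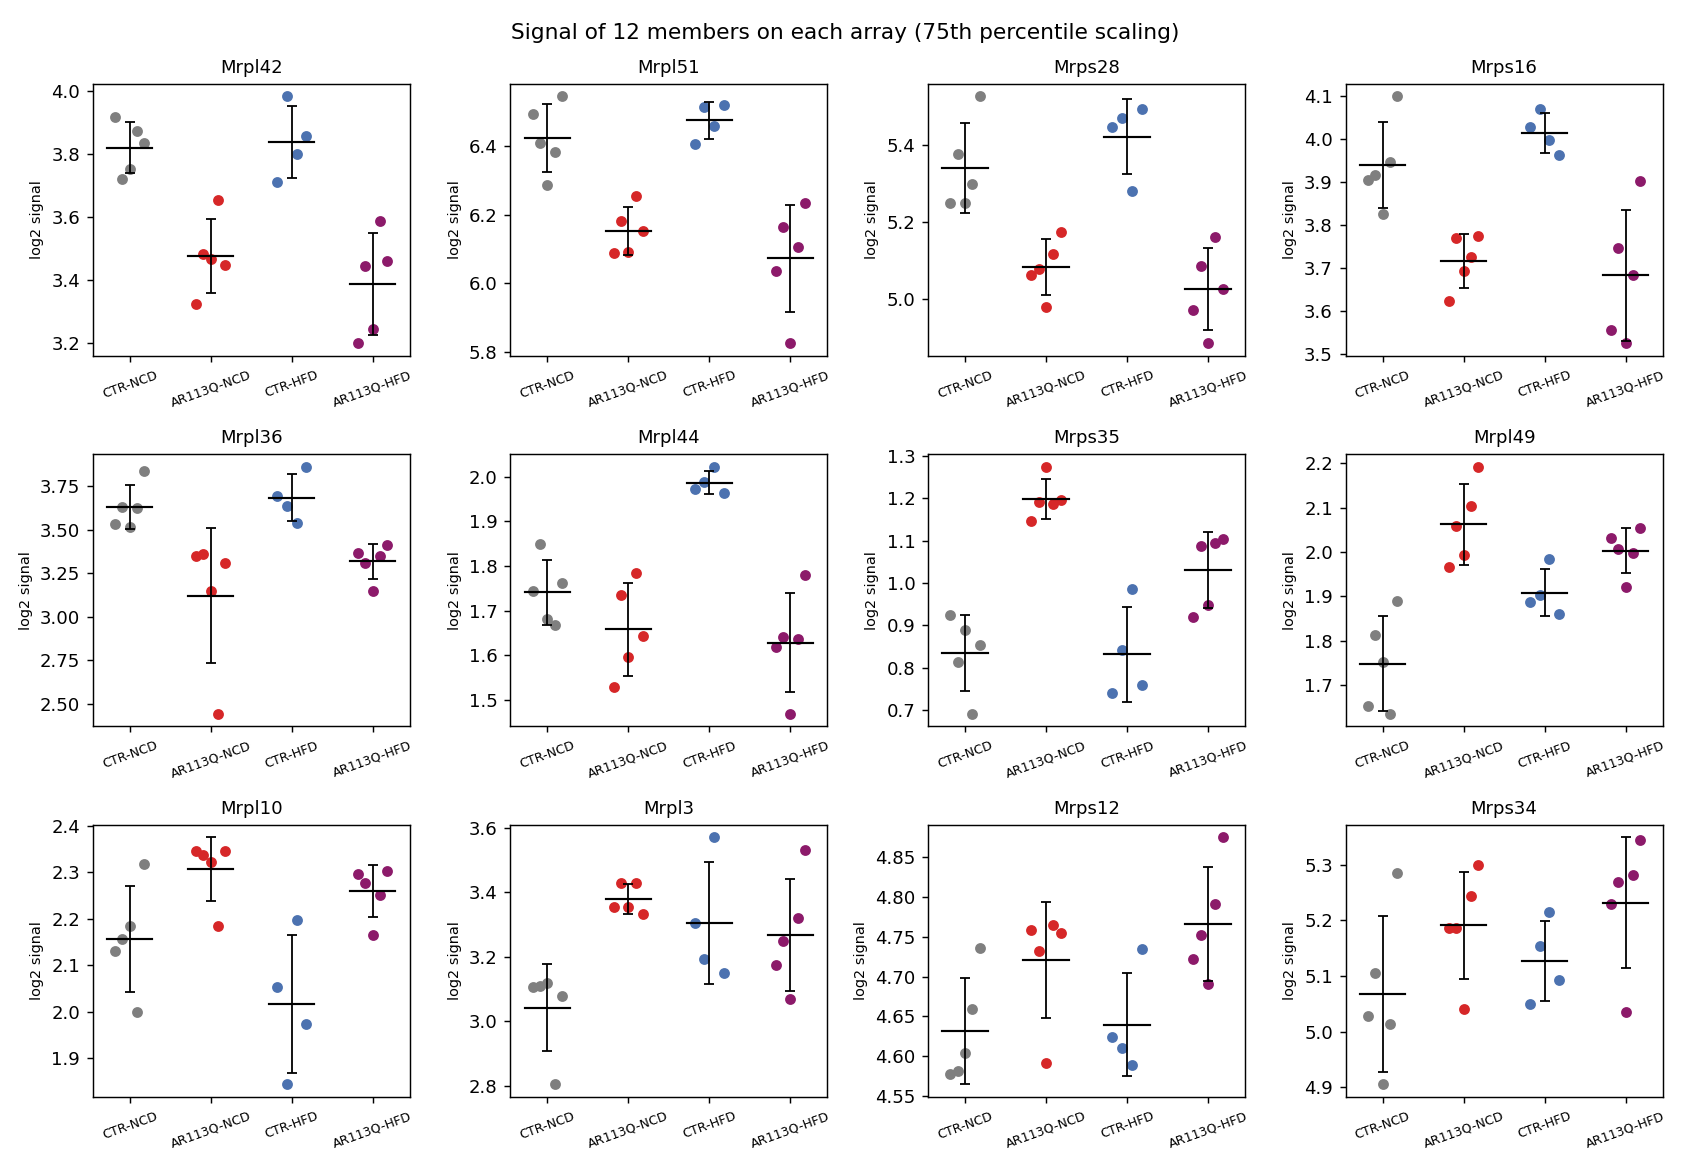
Levels of 12 ribosome genes on each array, by group (log2 intensity minus the 75th percentile of the array; each panel has its own range). Points are arrays and bars the group mean ± SD; Mrpl42 and Mrpl51 were lower on every AR113Q array than on any CTR array of the same diet, and Mrps35 was higher in AR113Q-NCD (1.15 to 1.27) than in CTR-NCD muscle (0.69 to 0.92).

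Mrps35, a mitochondria-specific protein of the small subunit, rose in AR113Q muscle. Its probe spans a splice junction (chr6:147009999-147019119, plus strand, mm9). The levels were 0.92, 0.81, 0.89, 0.69 and 0.85 in CTR-NCD and 1.15, 1.19, 1.27, 1.19 and 1.196 in AR113Q-NCD muscle. On HFD, they were 0.74, 0.84, 0.99 and 0.76 in CTR and 0.92, 1.09, 0.95, 1.09 and 1.10 in AR113Q muscle. The genotypes were apart on NCD and overlapped on HFD. The difference was 0.36 ± 0.064 (SE, adjusted p = 0.000730) on NCD, and 0.38 with quantile normalization (adjusted p = 0.000467). On HFD, it was 0.20 (adjusted p = 0.0519), and 0.23 with quantile normalization (adjusted p = 0.0243).

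Mrpl49 (probe at chr19:6053882-6053941, minus strand, mm9) is a large subunit protein specific to mitochondria. Its levels were 1.65, 1.81, 1.75, 1.64 and 1.89 in CTR-NCD and 1.97, 2.06, 1.99, 2.10 and 2.19 in AR113Q-NCD muscle, with no overlap. The difference was 0.31 (adjusted p = 0.00173) on NCD, and 0.35 with quantile normalization (adjusted p = 0.000253). On HFD, where CTR levels were 1.89, 1.90, 1.98 and 1.86 and AR113Q levels 2.03, 2.01, 1.92, 1.999 and 2.05, the difference was 0.09 (adjusted p = 0.376). A second probe of Mrpl49 differed by 0.05 on NCD and 0.04 on HFD and was not called.

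Mrpl3, which lies close to the peptidyl transferase center (probe at chr9:104979701-104979760, plus strand, mm9), had levels of 3.11, 3.11, 3.12, 2.80 and 3.08 in CTR-NCD and 3.36, 3.43, 3.35, 3.43 and 3.33 in AR113Q-NCD muscle. The difference was 0.34 (adjusted p = 0.0189). Without CTR-NCD replicate 4, the lowest array, it was 0.28 and was not called (adjusted p = 0.0561). On HFD, the levels overlapped, at 3.30, 3.19, 3.57 and 3.15 in CTR and 3.17, 3.25, 3.07, 3.32 and 3.53 in AR113Q muscle, with a difference of -0.04 (adjusted p = 0.859) that was 0.08 with quantile normalization. Mrpl41, another large subunit protein specific to mitochondria (probe at chr2:24829696-24829755, minus strand, mm9), rose by 0.28 on NCD (adjusted p = 0.0308) and differed by -0.03 on HFD. Its second probe differed by -0.03 and -0.18, and the call was lost without AR113Q-NCD replicate 2, 4 or 5 or CTR-NCD replicate 4 or 5 (adjusted p = 0.0550 to 0.0809).

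The stalk of the large subunit, which recruits the translation factors, is built from Mrpl10, Mrpl11 and Mrpl12. Mrpl10, the base of the stalk (probe at chr11:96910057-96910116, plus strand, mm9), was at 2.05, 1.84, 2.20 and 1.97 in CTR-HFD and 2.30, 2.28, 2.17, 2.25 and 2.30 in AR113Q-HFD muscle. Only AR113Q-HFD replicate 3 lay within the CTR range. The difference on HFD was 0.24 (adjusted p = 0.0329), and 0.31 with quantile normalization (adjusted p = 0.00664). It was not called without AR113Q-HFD replicate 1, 2, 4 or 5 or CTR-HFD replicate 1, 2 or 4 (adjusted p = 0.0522 to 0.125). On NCD, where CTR levels were 2.13, 2.16, 2.18, 1.9985 and 2.32 and AR113Q levels 2.34, 2.34, 2.32, 2.19 and 2.34, it was 0.15 (adjusted p = 0.174). A second probe of Mrpl10 differed by 0.10 on NCD (adjusted p = 0.461) and 0.23 on HFD (adjusted p = 0.0685) and was not called. Mrpl12, which carries the contacts to the factors, differed by -0.02 on NCD (adjusted p = 0.914) and -0.21 on HFD (adjusted p = 0.198). The 3 stalk genes thus had values of both signs.

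At the exit tunnel, which Mrpl22 and Mrpl24 line along with Mrpl23, Mrpl22 was lower on HFD (-0.29, adjusted p = 0.0191) and was not called there with quantile normalization (-0.16, adjusted p = 0.105). Mrpl24 differed by -0.01 on NCD and -0.12 on HFD. Mrpl45, which faces the inner membrane, differed by 0.11 (adjusted p = 0.495) and -0.15 (adjusted p = 0.342). In the small subunit, Mrps5 differed by -0.01 and -0.10, and Mrps22 by 0.09 and -0.01, without passing the test. Mrps12, a protein of the decoding center, differed by 0.09 (adjusted p = 0.334) and 0.13 (adjusted p = 0.167), but was higher with quantile normalization on both diets (0.19, adjusted p = 0.00693, and 0.27, adjusted p = 0.000710). Mrps34, which stabilizes the small subunit, behaved likewise, with 0.12 (adjusted p = 0.325) and 0.10 (adjusted p = 0.443), and 0.23 (adjusted p = 0.00871) and 0.26 (adjusted p = 0.00592) after quantile normalization.

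The genotype differences of the 73 genes were set side by side for NCD and HFD, which share no arrays but share slides. All 20 genes called on HFD had the same sign on NCD, and 8 of the 10 genes called on NCD had the same sign on HFD. The exceptions were Mrpl3 and Mrpl41, which were positive on NCD and slightly negative on HFD. Across all 73 genes, the sign was shared by 54, with r = 0.79 and rho = 0.81, and with quantile normalization by 56 (r = 0.77, rho = 0.79). Genes are not independent replicates, so this is a description.

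**Figure D3:**
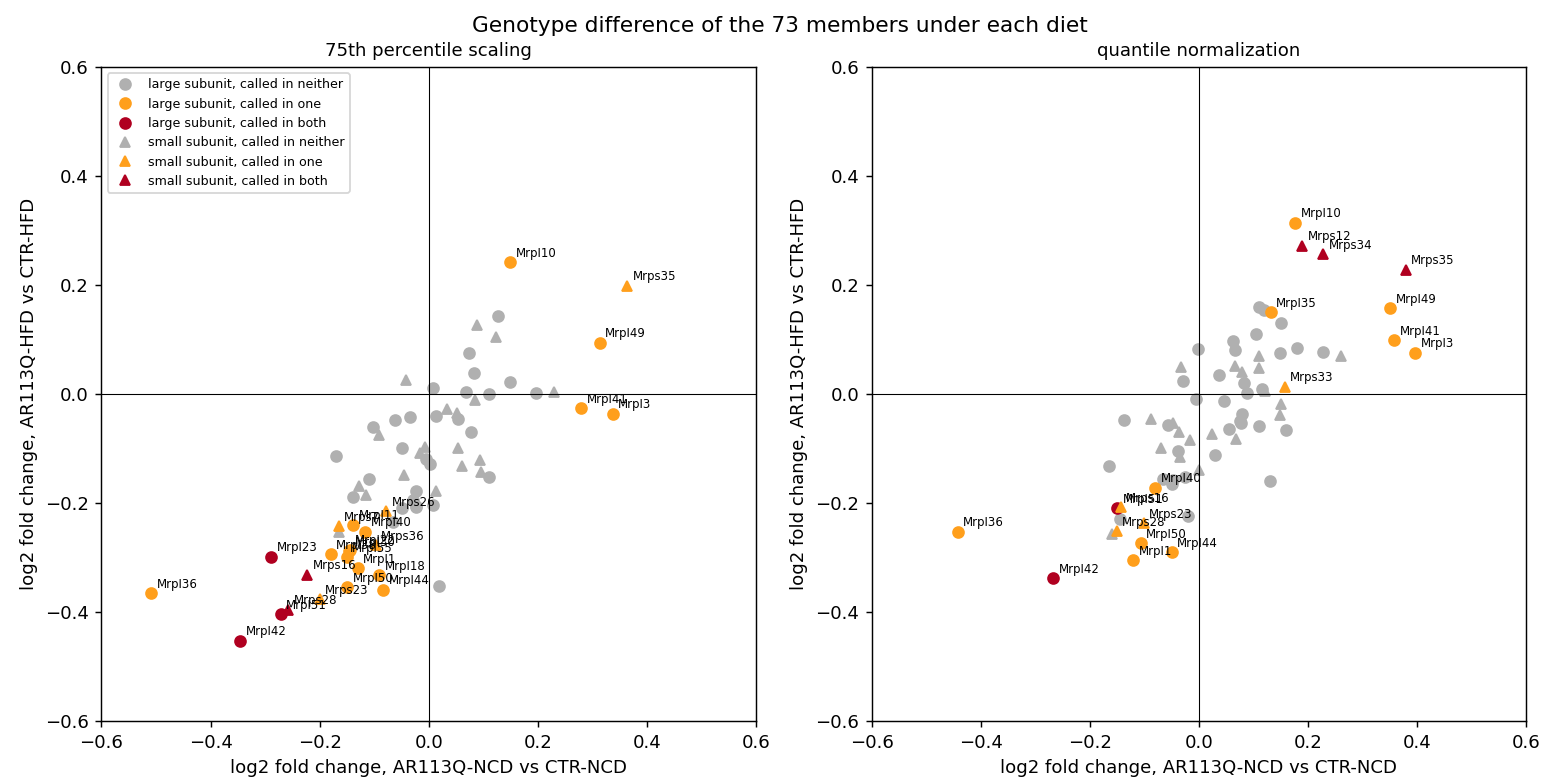
Genotype difference (AR113Q minus CTR, log2) of each of the 73 ribosome genes on NCD (horizontal axis) and on HFD (vertical axis), relative to the 75th percentile (left) and after quantile normalization (right). Circles are large and triangles small subunit genes, coloured by whether the gene was called on neither, one or both diets; in the left panel, 59 of 73 points lie below 0 on HFD, and Mrpl42 and Mrpl51 lie low on both axes.

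Averaged over diets, 23 of the 73 genes were lower and 4 higher in AR113Q muscle (31.5% and 5.48%), against 16.5% and 12.5% of all tested genes. The large subunit had 15 lower and 3 higher genes and the small subunit 8 and 1. The higher genes were Mrps35 (0.28, adjusted p = 0.000186), Mrpl10 (0.20, adjusted p = 0.00778), Mrpl49 (0.20, adjusted p = 0.00204) and Mrpl35 (0.13, adjusted p = 0.00579). Mrpl42 (-0.40, adjusted p = 8.00e-05) and Mrpl36 (-0.44, adjusted p = 0.00353) were among the lower. With quantile normalization, 11 were higher and 11 lower (15.1% each), against 16.9% and 14.0% of all genes. With each array centred on its median, 2 were higher (Mrps35 and Mrpl49) and 1 was lower (Mrpl42), as were 2678 and 2124 of the 24741 tested genes. The share of lower genes was thus above that of all genes relative to the 75th percentile but not clearly so after quantile normalization. The fall of Mrpl42 and the rises of Mrps35 and Mrpl49 were called on all 3 scales. After normexp background correction, Mrps35 kept its call (adjusted p = 0.0246), and Mrpl42 (adjusted p = 0.196) and Mrpl49 (adjusted p = 0.0761) lost theirs.

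**Figure D4:**
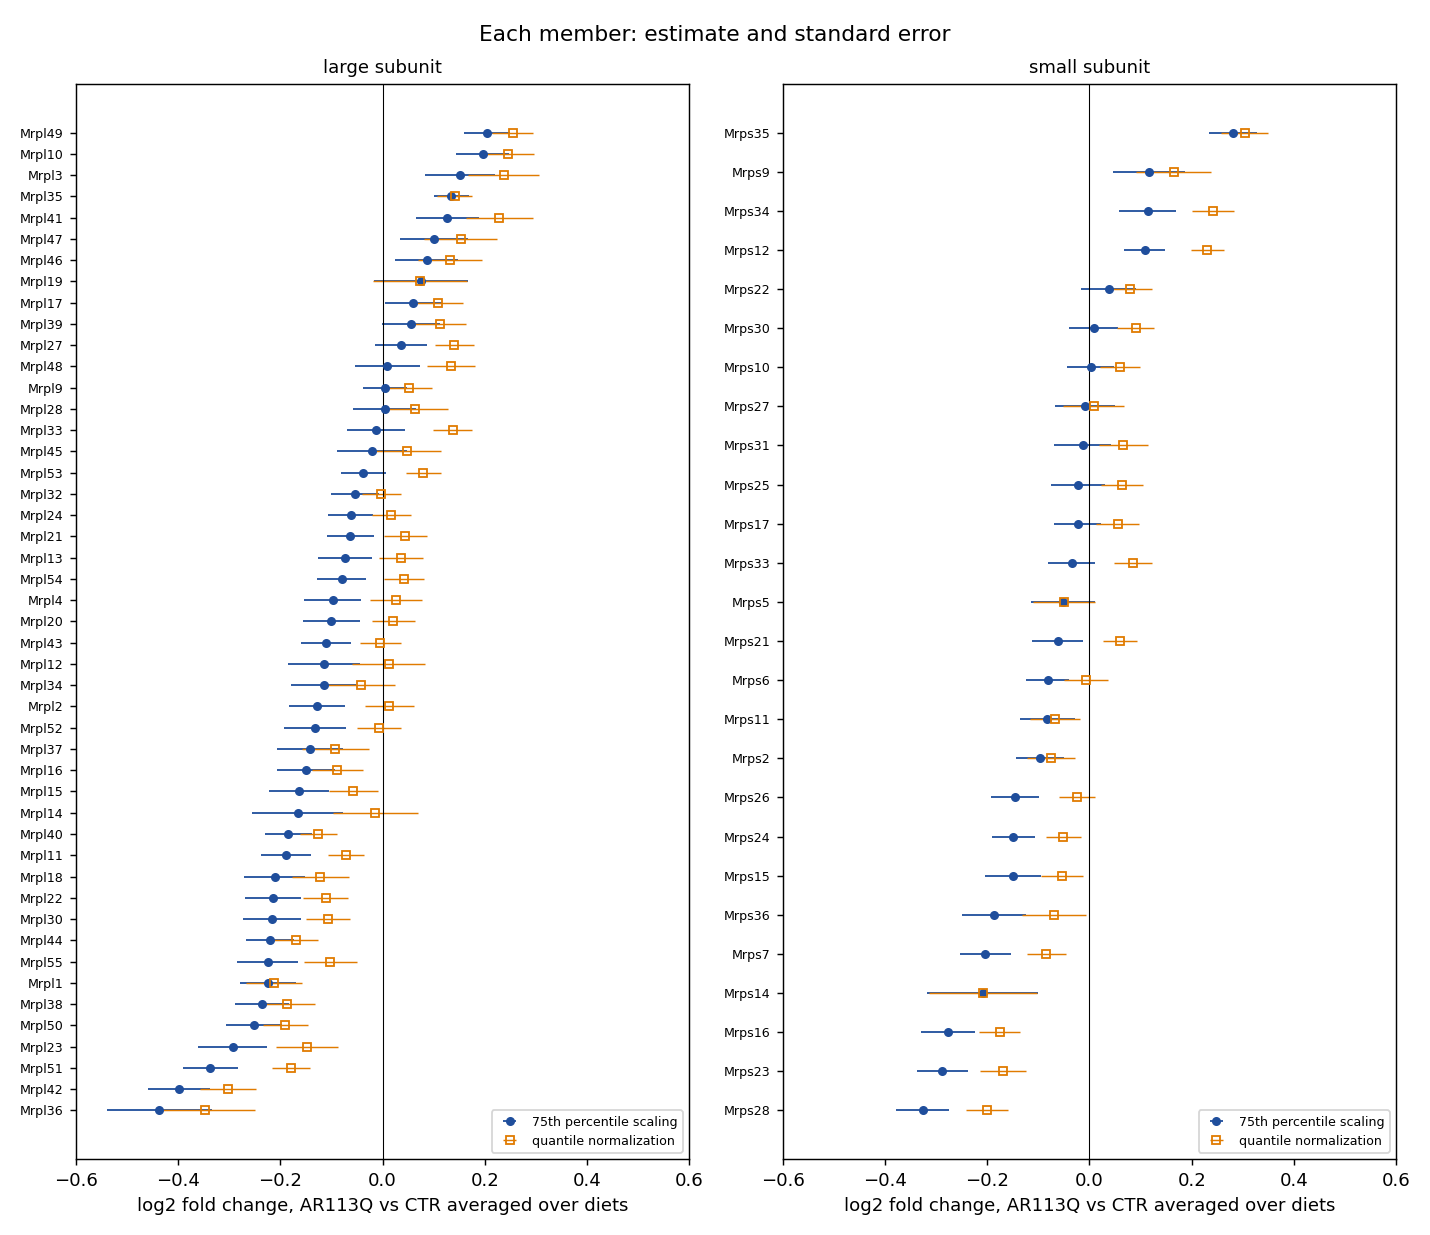
Difference between AR113Q and CTR muscle averaged over diets (log2, horizontal axis) for each of the 47 large and 26 small subunit genes, relative to the 75th percentile (filled circles) and after quantile normalization (open squares), with bars of 1 SE. Genes left of 0 were lower in AR113Q muscle, and the quantile-normalized values lie mostly to the right of the others; Mrpl36 stood lowest (-0.44) and Mrps35 highest (0.28) relative to the 75th percentile.

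No difference between the diets was called for a ribosome gene in either genotype. Between AR113Q-HFD and AR113Q-NCD muscle, limma called 0 of the 73 genes (smallest adjusted p = 0.529), while of all tested genes 0% were called as higher and 0.0202% as lower. Without adjustment, 3 of the 73 genes had a p under 0.05, all lower on HFD (6.64% of all genes). The lowest difference was that of Mrpl12 (-0.30 ± 0.097, SE, adjusted p = 0.529), whose arrays did not overlap. Mrps35 differed by -0.17, Mrpl28 by -0.17, Mrps36 by -0.17 and Mrps6 by -0.13. The median was -0.06 in each subunit, and values ranged from -0.30 to 0.20.

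Between CTR-HFD and CTR-NCD muscle, limma also called 0 of the 73 genes (smallest adjusted p = 0.354), and 0% of all tested genes in either direction. Without adjustment, 8 had a p under 0.05, 6 with a positive and 2 with a negative difference (8.36% of all genes). The differences with the smallest p were those of Mrpl44 (0.25), Mrps17 (0.22), Mrpl3 (0.26), Mrpl41 (0.24) and Mrpl24 (0.17). The values ranged from -0.22 to 0.26. The interaction of genotype and diet was called for 0 of the 73 genes (smallest adjusted p = 0.937) and for 0% of all genes, and 6 of the 73 passed at an unadjusted p under 0.05 (4.62% of all genes). The genes with the smallest p were Mrpl44 (-0.28), Mrpl3 (-0.37), Mrps17 (-0.24), Mrpl41 (-0.31) and Mrpl49 (-0.22). The larger number of called genes on HFD than on NCD was therefore not accompanied by a called difference between the diets for any gene.

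By descent, 43 of the genes were listed as having a bacterial counterpart and 30 as specific to mitochondria, a list that leaves the more distant relatives Mrps28 and Mrpl55 among the latter. On NCD, the first list had 1 higher and 3 lower genes and the second 3 and 3. On HFD, they had 1 higher and 8 lower, and 0 higher and 11 lower, with medians of -0.15 and -0.13. Of all tested genes, 7.96% were higher and 9.11% lower on NCD, and 7.37% and 10.6% on HFD. The same shares stand beside the counts of the lists that follow. With quantile normalization, the HFD counts were 3 higher and 2 lower for the first and 2 higher and 7 lower for the second. Of all 24741 genes, 2555 were then higher and 1973 lower. No test of the difference between the lists was made.

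A further 10 proteins of the mitochondrial ribosome have symbols that the rule does not match. On NCD, Gadd45gip1, a large subunit protein, was higher (0.37, adjusted p = 0.0151) and Mrps18b lower (-0.29, adjusted p = 0.0378). On HFD, Mrps18b (-0.53, adjusted p = 0.0010), Mrps18c (-0.29, adjusted p = 0.0070) and Mrps18a (-0.25, adjusted p = 0.0117), which form a family of related proteins, were lower. With quantile normalization, Mrps18a was not called on HFD (-0.12, adjusted p = 0.125), nor was Mrps18b on NCD (-0.19, adjusted p = 0.0869). The median of the 10 genes was -0.04 on NCD and -0.15 on HFD, close to that of the 73.

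Of 11 translation factors, 1 was higher and 2 lower on NCD, and 1 was higher and 4 lower on HFD. Mtif3, an initiation factor, rose on both diets (0.23 and 0.29), and the ribosome recycling factor Gfm2 (-0.23 and -0.41) and the release factor family member Mtrf1 (-0.29 and -0.40) fell on both. The elongation factors Tufm (-0.39, adjusted p = 0.0104) and Gfm1 (-0.28, adjusted p = 0.0402) were lower on HFD, but not with quantile normalization (adjusted p = 0.0933 and 0.238), which gave 2 higher and 1 lower factor on NCD and 1 and 2 on HFD.

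Of 17 tested ribosome assembly genes, 1 was lower on NCD and 6 on HFD, and limma called 0 as higher on either diet (2 on NCD and 0 on HFD had a positive difference with an unadjusted p under 0.05). Mtg1, a GTPase of large subunit assembly, was lower on both (-0.22 and -0.33). On HFD, the GTPase Mtg2 (-0.25), the large subunit assembly factor Malsu1 (-0.37), the GTPase Noa1 (-0.35), the small subunit factor Rbfa (-0.24) and the ribosomal RNA methyltransferase Tfb1m (-0.25) were lower as well. With quantile normalization, 1 was higher and 1 lower on NCD and 0 higher and 4 lower on HFD, where Malsu1 (adjusted p = 0.0938) and Rbfa (adjusted p = 0.0655) were not called.

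Of 17 mitochondrial aminoacyl-tRNA synthetases, which charge the tRNAs that the ribosome uses, 2 were higher and 2 lower on NCD, and 1 was higher and 4 lower on HFD. Rars2, for arginine, fell on both diets (-0.49 and -0.69), and Hars2, for histidine, rose on both (0.45 and 0.34). Ears2, for glutamate, fell on both (-0.24 and -0.26), Mars2, for methionine, rose on NCD (0.36), and Aars2, for alanine (-0.24), and Yars2, for tyrosine (-0.26), fell on HFD. Of these, Rars2, Hars2 and Ears2 kept their calls on both diets with quantile normalization, which gave 3 higher and 2 lower genes on NCD and 1 and 2 on HFD.

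Of 11 genes of mitochondrial DNA expression, 1 was higher and 2 lower on NCD, and 0 were higher and 5 lower on HFD. Tfb2m, the initiation factor of mitochondrial transcription, fell by 0.27 and 0.47 on the log2 scale, and Slirp, which stabilizes mitochondrial messages with Lrpprc, fell by 0.28 and 0.36. On HFD, the mitochondrial RNA polymerase Polrmt (-0.33), Lrpprc (-0.26) and the DNA polymerase subunit Polg2 (-0.28) were lower too. Gabpa, a subunit of the ETS factor GABP, was higher on NCD (0.29, adjusted p = 0.0159). With quantile normalization, the counts were unchanged on NCD and 0 higher and 3 lower on HFD, where Lrpprc (adjusted p = 0.296) and Polg2 (adjusted p = 0.0636) were not called.

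The ribosome genes with and without each motif were also set side by side, and no test of the difference was made. The median difference averaged over diets was -0.06 for genes with the ETS letters and -0.10 for those without, -0.06 and -0.09 for NRF1, and -0.14 and -0.06 for YY1. With quantile normalization, the ETS medians were 0.04 and -0.01, the NRF1 medians 0.03 and -0.01, and the YY1 medians -0.07 and 0.01. Of the 5 promoters shown, those with the ETS letters belonged to a gene that fell (Mrpl51) and a gene that rose on NCD (Mrpl3), and those with the NRF1 letters to Mrpl44, lower on HFD, and Mrpl10, higher on HFD.

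Other gene groups were read beside the ribosome genes. Of all 24741 tested genes, 7.96% were higher and 9.11% lower on NCD, and 7.37% and 10.6% on HFD. With quantile normalization, 2491 were higher and 2039 lower on NCD, and 2555 and 1973 on HFD. Of 79 oxidative phosphorylation subunits, 2 were higher and 2 lower on NCD, and 1 was higher and 34 lower on HFD (median -0.25), which became 15 higher and 1 lower, and 5 higher and 4 lower, with quantile normalization. Of 75 cytosolic ribosomal protein genes, 1 was higher and 4 lower on NCD and 0 higher and 4 lower on HFD, against 12 higher and 1 lower and 29 higher and 0 lower with quantile normalization. Of 10 fast fiber genes, 8 were lower on NCD and 9 on HFD (medians -0.37 and -0.50), and 3 and 3 with quantile normalization (medians 0.01 and -0.02). The scaling thus moved these lists in the same direction as the ribosome genes.

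**Figure D5:**
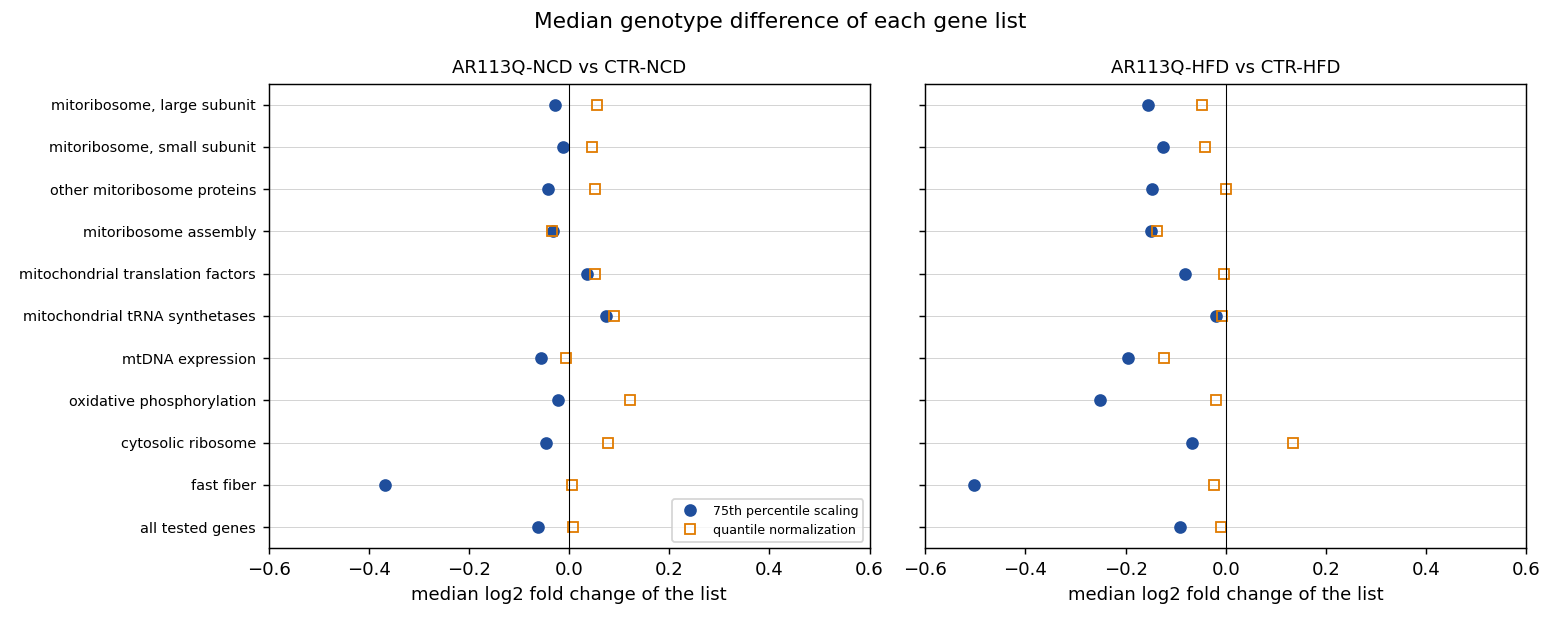
Median genotype difference (AR113Q minus CTR, log2) of the ribosome genes and of related gene lists on NCD and HFD, relative to the 75th percentile and after quantile normalization. The slow fiber list is not drawn, and its levels are given in the text. The medians of the large subunit on HFD were -0.16 and -0.05 on the 2 scales, and those of the oxidative phosphorylation list -0.25 and -0.02.

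Of 11 slow fiber genes, 0 were called by limma in either genotype comparison (5 on NCD and 0 on HFD had an unadjusted p under 0.05). Their mean level was nevertheless higher in AR113Q than in CTR muscle on each diet. It was 4.73 ± 0.38 (SD) against 2.91 ± 1.38 on NCD, and 2.72 ± 1.55 against 1.77 ± 2.31 on HFD. This mean level varied widely between arrays. In CTR muscle, it ranged from 1.01 to 4.54 on NCD and from -0.45 to 4.92 on HFD. In AR113Q muscle, it ranged from 4.44 to 5.36 on NCD and from 0.84 to 4.24 on HFD. All 6 skeletal muscle markers were lower in AR113Q muscle on each diet (medians -0.40 and -0.50, and -0.04 on each diet with quantile normalization, with 2 of 6 called). The part of fiber type in the differences of the ribosome genes was not tested.

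Of the markers of other cell types, limma called 0 in either genotype comparison. At an unadjusted p under 0.05, these numbered on NCD 1 macrophage, 1 Schwann cell and 1 red blood cell marker, and on HFD 1 macrophage, 1 endothelial and 1 white adipocyte marker. The mean level of 6 white adipocyte markers ranged on NCD from 0.32 to 2.51 (CTR) and from 0.83 to 2.12 (AR113Q), and on HFD from 0.24 to 2.34 (CTR) and from -0.02 to 2.26 (AR113Q). That of 6 macrophage markers lay between 0.45 and 1.19 in all groups, and that of 5 endothelial markers between 0.0034 and 0.61. The 5 Schwann cell markers lay between -0.94 and -0.20 and the 4 tested red blood cell markers between 0.63 and 2.33. These markers were above background on all 19 arrays, and their part in the results was not tested.

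The ribosome genes with several probes allowed a check within the array. Of 25 such genes, the probes had the same sign in 16 on NCD and in 21 on HFD, and in 0 genes were probes called in opposite directions. For Mrpl23, the second probe gave -0.25 on NCD and -0.33 on HFD. Other probes differed more. On HFD, dimmer probes of Mrpl9 (-0.61, adjusted p = 0.00469) and Mrpl39 (-0.30, adjusted p = 0.0394) were called as lower. The brightest probes of these genes were not called (-0.05 and -0.0001), so neither gene was counted as lower. Probe positions are those of the array design on mm9, and whether they lie in coding or untranslated exons was not analysed here.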

How the data were processed

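Total RNA from quadriceps muscle was hybridised by the authors to 19 one-colour Agilent mouse arrays. The deposited spot intensities came from Feature Extraction 10.7.3.1, which per the file headers subtracted local background and corrected trends across the array, without normalization between arrays. The authors also deposited a table of log2 values, whose method is not given in the sources used here. Groups follow the labels.

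Intensities of 43020 spots were taken to log2 after control and outlier spots had been removed, and repeated spots were merged into 39429 probes by their mean. Each array was scaled by subtracting its 75th percentile. Probes entered the test (32026) if 0.5 or more of their spots exceeded background clearly on 4 or more arrays. The number of arrays limits the precision. limma (3.58.1, under R 4.3.3) was fitted to the 4 groups together, p-values were adjusted by Benjamini-Hochberg over every tested probe, and the threshold was 0.05. The script was tested on simulated data. Genes were counted through their brightest tested probe.

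The genes, lists and alternatives were chosen with earlier results of these data known. Named were all called ribosome genes, or the 12 with the largest change in a direction where more were called, the 5 with the smallest p where fewer than 5 were called, members with a listed role, and at most 8 called genes of each related list. The results were recomputed after centring on the median, after quantile normalization, after normexp (offset 50), from the authors' table, without or with a stricter filter, with the slide or the replicate number as a block, with array weights, with only the compared groups, through any probe of a gene, with fold thresholds (at least 1.5 or at most 0.6) and without each array.

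Arrays with the same replicate number share a slide, except CTR-HFD replicate 4, which is on slide 5. The deviations of same-numbered arrays from their group means correlated at 0.24 to 0.45 on NCD, at -0.21 to 0.43 on HFD, at -0.01 to 0.48 between the AR113Q groups and at 0.01 to 0.54 between the CTR groups.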

Additional observations from a re-analysis of the deposited data

Results flagged for a closer look

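A total of 108 sets of arrays (a named gene in a group of 4 or 5) were searched for a single array far from the others, with a Dixon test that flags about 1 in 20 sets by chance, and 8 were found. In CTR-NCD replicate 4, Mrpl3 was at 2.8048 (next 3.08), Mrpl38 at 2.2853 (next 2.50) and Mrps36 at 4.0606 (next 4.32), all below the other CTR-NCD arrays. In CTR-NCD replicate 5, Mrpl22 was at 4.1259, above the others (next 3.93). In AR113Q-NCD replicate 4, Mrpl36 was at 2.4421 (next 3.15) and Mrpl10 at 2.1852 (next 2.32). In AR113Q-HFD replicate 3, which had the lowest mean of both subunits in its group, Mrps23 was at 4.6741 (next 4.95) and Mrps7 at 4.2266 (next 4.45). The cause of these values was not tested.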

How the results depend on the processing

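The number of called ribosome genes depended on the scaling. With quantile normalization, 7 were higher and 3 lower on NCD, 5 and 9 on HFD and 11 and 11 averaged over diets, and the medians moved to 0.0557 (large subunit, NCD), -0.0482 and -0.0422 (large and small subunit, HFD) and 0.0132 (large, averaged). With the authors' values, 5 were higher and 3 lower on NCD, 5 and 6 on HFD, and 9 and 12 averaged. Of all 23735 genes, 2261 and 1943 were then called on NCD, 2314 and 1780 on HFD, and 3901 and 3251 averaged. The medians of the ribosome genes were 0.0529 (small, NCD), -0.0269 and -0.0357 (HFD) and 0.0102 and 0.0120 (averaged). With median centring, 1 was higher and 0 lower on NCD, 0 and 0 on HFD, and 2 and 1 averaged. Of all 24741 genes, 1011 and 806 were then called on NCD, 1100 and 757 on HFD, and 2678 and 2124 averaged. The medians of the ribosome genes were 0.0512 (small, NCD), -0.0817 and -0.0521 (HFD) and 0.0113 (small, averaged). With normexp, which moved the median of all genes on NCD to -0.53, 2 were higher and 0 lower on NCD, 0 and 0 on HFD, and 1 and 1 averaged. Of all 24741 genes, 376 and 331 were then called on NCD, 321 and 512 on HFD, and 914 and 1068 averaged. The medians of the ribosome genes were 0.223 and 0.235 on NCD, 0.0219 and 0.0391 averaged, and 0.395 and 0.383 for CTR-HFD against CTR-NCD. Mrpl23 (0.0036), Mrpl51 (0.014), Mrps16 (0.032) and Mrps28 (0.027) changed sign on NCD under normexp. With the fold thresholds, 0 ribosome genes were called in any comparison. On HFD, 3 genes were higher with probes above background on all arrays, 2 with array weights and 3 with the slide block, and 0 were higher and 7 lower with the compared groups alone. The slide block gave 24 lower ribosome genes on HFD. Of all 24741 genes, 2231 were then higher and 4935 lower.

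With the replicate block, which the pairing on NCD allows, 4 were higher and 7 lower on NCD. On HFD, 1 was higher and 27 lower, and averaged over diets 5 and 27. Of all 24741 genes, 2282 and 3258 were then called on NCD, 1929 and 3564 on HFD, and 3284 and 5207 averaged. The block moved no count of called ribosome genes by over 1.5 times. At an unadjusted p under 0.05, it moved the NCD count of lower genes from 10 to 16, the higher count for CTR-HFD against CTR-NCD from 6 to 15, and the negative interactions from 6 to 12. Leaving out each array in turn gave 2 to 5 higher and 3 to 7 lower on NCD, 0 to 2 and 11 to 20 on HFD, and 4 to 7 and 19 to 24 averaged. The lowest NCD counts came without CTR-NCD replicate 4 (2 higher) and without AR113Q-NCD replicate 3 or CTR-NCD replicate 5 (3 lower). The highest averaged count (7 higher) came without CTR-HFD replicate 3, and the lowest HFD count (11 lower) without AR113Q-HFD replicate 3. On HFD, 0 were higher without AR113Q-HFD replicate 2, 4 or 5 or CTR-HFD replicate 1, 2 or 4, and 2 without CTR-HFD replicate 3 or CTR-NCD replicate 4. Of 41 calls for single genes, 30 were made in all of these fits. Diet and interaction counts were 0 throughout the alternatives run. The cause of these changes was not tested.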
